A study of Canis lupus familiaris with 36 samples.

Results

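The 100 most abundant transcripts of CLBL-1 cells, a line grown from a canine B-cell lymphoma, were described across drug treatments and incubation times. They were chosen by their mean level in the control libraries of 24 h, as the 100 highest, where the level was the count per 1000000 of the library's reads on all genes (CPM). These 100 genes are 0.329% of the 30424 genes of the count table and drew 23.5% ± 0.20 (SD, n = 3) of the reads on genes in those control libraries. The treatments were ibrutinib at 1 μM (Ibr), AS-605240 at 5 μM (AS), both agents together (Ibr + AS) and the solvent DMSO alone, each for 24, 48 or 72 h. Ibrutinib inhibits Bruton's tyrosine kinase, which passes on the B-cell receptor signal, and AS-605240 inhibits the gamma form of phosphoinositide 3-kinase. Each of the 12 groups held 3 libraries, from passages p121, p126 and p128 of the same line (replicates 1, 2 and 3). All replicates are therefore passages of 1 line, and the solvent was present in every group.

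The most abundant messenger RNAs of a dividing cell encode proteins needed in bulk. Ribosomal proteins build the small (RPS) and large (RPL) ribosomal subunits, and their transcripts share a 5′ sequence that makes their translation sensitive to growth signals passing through the mTOR kinase. B cells also present antigen on major histocompatibility complex (MHC) class II molecules, so transcripts of these genes can be abundant in them.

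The 36 libraries held 9941919 to 14703839 reads on genes. The lowest count of any of the 100 genes in any library was 5406, so the counting error of each value was small. Ibr 72 h replicate 3, which the study set aside as an outlier, was left out of the tests but kept in the levels. The library index in the column names restarts after 18 libraries, which was read here as 2 sequencing runs, though no source names them, and passage p121 lay wholly in the first. On that reading, the replicate 2 libraries of AS and of Ibr + AS at 48 h belonged to the second run and those of DMSO and Ibr to the first. For DMSO 24 h replicate 3 the title and the passage field named different passages, and the field (p128) was used. A symbol was paired with 12 of the 100 identifiers, and the other 88 are described by counts and, for a few, by identifier. The pairs came from shortened gene lists, so the 12 are not a representative sample of the 100. Of the marker genes listed for other cell types, only LYZ, a myeloid gene, was paired (87.1 CPM in DMSO 24 h), and no defining B-cell marker could be paired. The labelled cell type could thus be checked only through MHC class II genes, which B cells share with other antigen-presenting cells. DLA-DRA (2755 CPM) is among the 100, and DLA-DQA1 (702 CPM), DLA-DMA (512 CPM) and DLA-DOA (48.1 CPM) are not.

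Within the 100, levels in DMSO 24 h fell steeply with rank. The first gene had a mean of 14721 CPM, the second 7941, the tenth 4865, the fiftieth 1723 and the last, HNRNPH1, 1031. The first was 14.3 times the last, and the first 10 genes took 6.86% ± 0.18 of the reads. These values chose the genes and are a description. HNRNPH1 (1031 ± 54.4 CPM) and the next gene outside the set (1030 ± 83.4) differed by less than their SDs. The genes at ranks 99 and 102 had 1041 ± 15.6 and 1021 CPM. The median coefficient of variation between the 3 DMSO 24 h libraries was 3.16%, and it exceeded 10% for 2 of the 100 genes. No gene length was used here, so ranks order reads and not molecules.

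**Figure D1:**
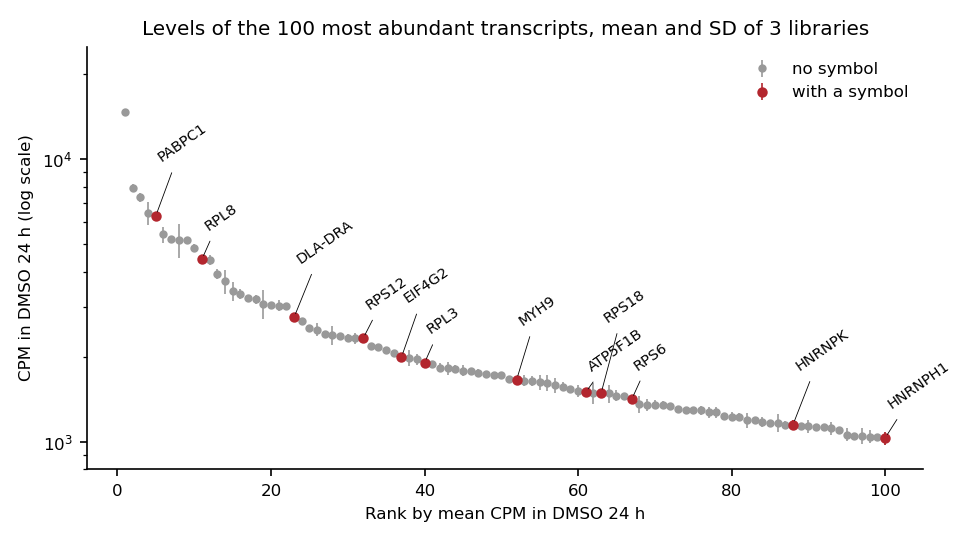
CPM in DMSO 24 h (log scale) against rank for the 100 genes, as mean and SD of 3 libraries, with the 12 genes that have a symbol in red. PABPC1 (rank 5) and RPL8 (rank 11) lie in the steep part and HNRNPK (rank 88) and HNRNPH1 (rank 100) in the flat part of the curve.

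The 12 genes with a symbol fell into a few roles. PABPC1 binds the poly(A) tail of messenger RNAs and had rank 5 (6310 ± 78.98 CPM, SD, n = 3). Ribosomal proteins were represented by RPL8 (rank 11), RPS12 (rank 32), RPL3 (rank 40), RPS18 (rank 63) and RPS6 (rank 67), which together took 1.15% ± 0.03 of the reads in DMSO 24 h. EIF4G2, a translation initiation factor related to the eIF4G scaffold, had rank 37. DLA-DRA, the alpha chain of the class II molecule DR, had rank 23. MYH9, the heavy chain of non-muscle myosin IIA, had rank 52, and ATP5F1B, the catalytic beta subunit of mitochondrial ATP synthase, had rank 61. HNRNPK (rank 88) and HNRNPH1 (rank 100) are nuclear RNA-binding proteins that take part in splicing.

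The share of reads taken by the 100 genes was higher with Ibr + AS than with DMSO in all 3 passages at each incubation time, but the difference was small at 72 h in 2 of them. At 48 h the DMSO libraries held 22.3, 24.2 and 23.6% and the Ibr + AS libraries 28.3, 30.04 and 29.9% in passages p121, p126 and p128. The groups did not overlap, and the difference within passages was 6.06 ± 0.22 percentage points (SD, n = 3). Passage p126, whose libraries fell in different inferred runs, differed by 5.88 points, against 6.01 and 6.30 in the other passages, each within 1 inferred run. At 24 h, where the DMSO libraries had chosen the genes, the share was 29.5% ± 1.41 with Ibr + AS against 23.5% ± 0.20. At 72 h the Ibr + AS libraries held 25.3, 26.3 and 29.2% against 24.8, 26.03 and 24.6% with DMSO. The difference at 72 h was 1.85 ± 2.45 points and 0.44 without passage p128, whose Ibr + AS library stood apart from the other two. No test was made of these shares.

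Single agents gave smaller differences in the share. At 48 h Ibr held 26.2% ± 1.71 and AS 24.8% ± 0.50, which was 2.86 ± 0.88 and 1.46 ± 1.43 points above DMSO. At 72 h Ibr (24.6% ± 0.54) and AS (24.5% ± 0.45) were 0.55 and 0.58 points below DMSO, less than the SDs of these differences (1.21 and 1.16). The Ibr values include replicate 3, the outlier that was left out of the tests. By passage, Ibr differed from DMSO by -0.49 (p121), -1.79 (p126) and 0.62 points (p128, the outlier). These comparisons share the DMSO libraries. DMSO itself was not constant, since its share rose from 23.3% ± 0.93 at 48 h to 25.1% ± 0.80 at 72 h, in 3 of 3 passages and by 1.77 ± 0.71 points. The next 100 genes by the same measure took between 7.92 and 8.72% of the reads in all 36 libraries. A share is relative to all reads of a library and gives no amount of RNA per cell. In these bulk samples fewer cells of a type and less RNA per cell cannot be told apart.

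**Figure D2:**
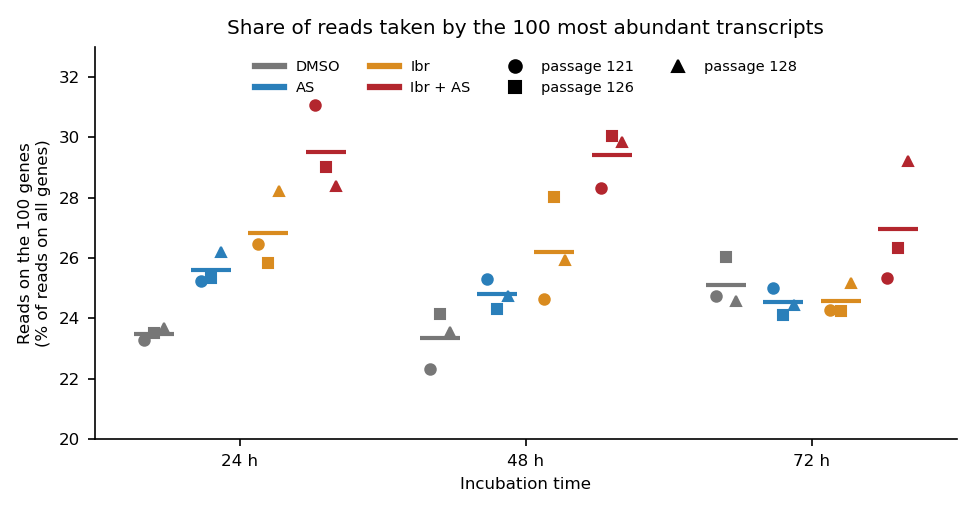
Percentage of reads on genes that fell on the 100 genes, per library (symbols: passages) and as group mean (bars), by treatment and incubation time; the vertical axis starts at 20%. The Ibr + AS libraries lie at 28.3% or higher at 24 and 48 h, and at 72 h only passage p128 (29.2%) does.

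Most of the 100 stayed among the first 100 elsewhere. In every library, 67 of the 100 genes (7 of the 12 with a symbol) were among its own first 100. By group mean, 80 were still among the first 100 in Ibr + AS 48 h, 83 in Ibr + AS 24 h, 82 in DMSO 72 h and 88 to 94 in the remaining groups, Ibr + AS 72 h (89) and DMSO 48 h (91) included. HNRNPH1 left the first 100 in every group but DMSO 24 h, and HNRNPK in every group but DMSO 24 h and AS 48 h. ATP5F1B left it in Ibr + AS at 24 and 48 h, and EIF4G2 and MYH9 left it in DMSO 72 h. EEF1D, a subunit of the translation elongation factor 1 complex, entered it in all 3 Ibr + AS groups and in Ibr 48 h. PLEC, which encodes the cytoskeletal linker plectin, entered it in all 3 Ibr + AS groups and in AS 48 h, AS 72 h and Ibr 72 h. The lowest DMSO 24 h rank of an entrant was 3393, in Ibr 48 h and in Ibr + AS 48 h.

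Tests were made with edgeR on all genes, adjusting for passage number. A differentially expressed gene (DEG) had an adjusted p-value of at most 0.05 and a log2 fold change (log2 FC) above 1 or below -1. Since most changes of the 100 genes were smaller than that, genes past the adjusted p alone were counted too. Comparisons with DMSO 24 h are given as fold changes only, because those libraries chose the genes. The fold changes are on edgeR's TMM scale, which lies apart from the CPM scale where libraries differ in composition. For Ibr + AS against DMSO at 48 h the median log2 FC of all genes was 0.01 on the TMM scale and -0.11 in CPM, and that of the 100 genes 0.45 and 0.33, with 76 and 72 genes above 0.

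With Ibr + AS at 48 h, 78 of the 100 genes passed the adjusted p, 65 higher and 13 lower, where 30.8% of all 18670 genes tested did (15.4% higher and 15.3% lower). Their median log2 FC was 0.45, against 0.01 over all genes and -0.06 over the next 100 genes, of which 38 were higher and 32 lower. Only 4 of the 100 were DEGs, all higher with log2 FC of 1.00 to 1.12, beside 7.69% of all genes (4.86% higher). The range over the 100 genes was -0.87 to 1.12. With the inferred run as a term 2 were DEGs, and without replicate 2 there was 1.

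The single agents moved fewer of them at 48 h. With Ibr, 35 genes were higher and 1 lower past the adjusted p (10.6% of all genes passed, 5.65% higher and 4.94% lower), with a median log2 FC of 0.24. Ibr and the combination share the DMSO libraries here, and 32 of these 35 were higher with the combination too. With AS, 3 were higher and 1 lower (3.66% of all genes passed, 1.56% higher and 2.1% lower), with a median of 0.12, and 30 passed an unadjusted p of 0.05. In the next 100 genes 33 passed with Ibr (22 higher and 11 lower) and 11 with AS (4 higher and 7 lower). Neither agent alone made any of the 100 a DEG at 48 h, by edgeR (also at an unadjusted p under 0.05) or by DESeq2, beside 2.0% of all genes for Ibr and 0.611% for AS. The count for AS depended on the fit, being 21 when only the groups compared were fitted and 15 without replicate 2, and the count for Ibr was 68 when only the groups compared were fitted.

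At 72 h fewer of the 100 differed between Ibr + AS and DMSO. There, 24 genes were higher and 8 lower past the adjusted p, where 28.6% of all genes passed (14.1% higher and 14.5% lower), and the median log2 FC was 0.10. The share of the 100 that passed (32 genes) was near that of all genes but below that of the next 100 genes. There 57 passed, 34 higher and 23 lower. Ibr had 14 higher and 5 lower (17.6% of all genes passed, 8.36% higher and 9.26% lower), with a median of -0.07. AS had 15 higher and 7 lower (13.2% of all genes passed, 6.8% higher and 6.4% lower), with a median of -0.06. Without replicate 1, AS had 13 higher and 16 lower. Among the next 100 genes 36 passed with Ibr (22 higher and 14 lower) and 29 with AS (21 higher and 8 lower). Ibr + AS again had 4 DEGs, all higher, beside 7.53% of all genes (3.23% higher). They were MYH9 and 3 genes without a symbol, with log2 FC up to 1.46. Ibr had 1 DEG, without a symbol, beside 3.99% of all genes (2.69% lower). It was lower and was not called without the filter on low counts, with the inferred run as a term or without replicate 2. AS had 0 DEGs, by edgeR (also at an unadjusted p under 0.05) and by DESeq2, beside 2.19% of all genes.

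Between the times, 47 of the 65 genes that were higher with Ibr + AS at 48 h did not pass at 72 h, 17 were higher at both times, and DLA-DRA was higher at 48 h and lower at 72 h. A test of the difference itself (the Ibr + AS effect at 72 h minus that at 48 h) passed for 55 of the 100, 45 of them with a lower effect at 72 h and 10 with a higher one, where 15.4% of all genes passed (7.49% higher and 7.92% lower) and 3.29% were DEGs, as were 3 of the 100. Nearly as many of the next 100 genes passed, 54, with 29 lower and 25 higher, so the 100 stood apart by direction rather than by number. The median of this difference was -0.38 on the log2 scale for the 100 and 0.08 for the next 100. Without replicate 2 the test passed for 23 of the 100 genes, 15 lower and 8 higher.

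**Figure D3:**
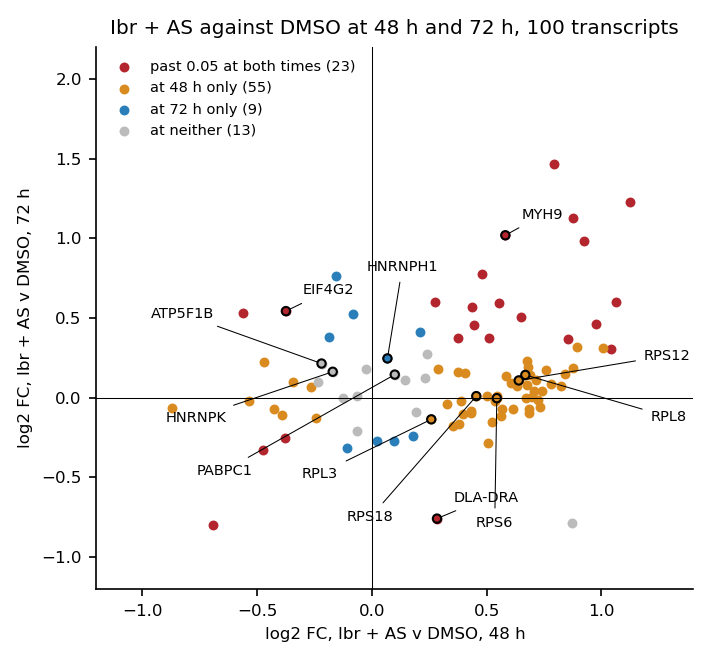
log2 FC of Ibr + AS against DMSO at 48 h (horizontal) and 72 h (vertical) for the 100 genes, coloured by the times at which the adjusted p was at most 0.05, with the 12 genes that have a symbol circled and named. The 55 genes past 0.05 at 48 h only lie close to the horizontal line at 0, MYH9 is higher at both times, and DLA-DRA is higher at 48 h and lower at 72 h.

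The DMSO side of the comparison changed between these times. In the DMSO libraries, 54 of the 100 genes were higher and 27 lower at 72 h than at 48 h past the adjusted p, where 29.4% of 16468 genes tested passed (13.9% higher and 15.5% lower), and the median log2 FC was 0.21. The next 100 genes had 35 higher and 36 lower, with a median of -0.03. None of the 100 was a DEG by edgeR (also at an unadjusted p under 0.05) or by DESeq2, beside 3.01% of all genes, though 1 was called without replicate 3. In a fit of 35 libraries 48 passed, 34 higher and 14 lower. From 24 h to 72 h of Ibr + AS, 6 genes were higher and 15 lower (9.66% of all genes passed, 4.33% higher and 5.33% lower), with a median of -0.20. That count rested on single passages, since it was 7 without replicate 1, 12 without replicate 2 and 60 without replicate 3, the passage whose 72 h library had the high share. It was 2 when only the groups compared were fitted and 34 by DESeq2. None of the 100 was a DEG there, by edgeR (also at an unadjusted p under 0.05) or by DESeq2, beside 1.52% of all genes. The next 100 genes had 23 higher and 14 lower past the adjusted p in this comparison.

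At 24 h the combination could be tested against each single agent without the DMSO libraries. Ibr + AS was higher than AS for 54 of the 100 genes and lower for 15 (24.8% of all genes passed, 12.4% higher and 12.3% lower), with a median log2 FC of 0.31. It was higher than Ibr for 37 and lower for 12, with a median of 0.24 (19.4% of all 18670 genes passed, 1870 genes higher and 1753 lower). For 36 genes Ibr + AS was higher than both agents (8.64% of all genes were) and for 12 lower than both (8.38%). These comparisons share the Ibr + AS libraries. The next 100 genes passed about as often, with 27 higher and 37 lower against AS and 21 higher and 27 lower against Ibr. None of the 100 was a DEG by edgeR in either comparison, beside 2.88% of all genes against Ibr and 4.76% against AS, while DESeq2 called 1 gene in each and an unadjusted p under 0.05 would call 1 against Ibr and 0 against AS. Against DMSO 24 h, without a test, the median log2 FC of the 100 genes was 0.59 for Ibr + AS, 0.30 for Ibr and 0.19 for AS, and that of all genes was 0.03, 0.00 and 0.01.

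**Figure D4:**
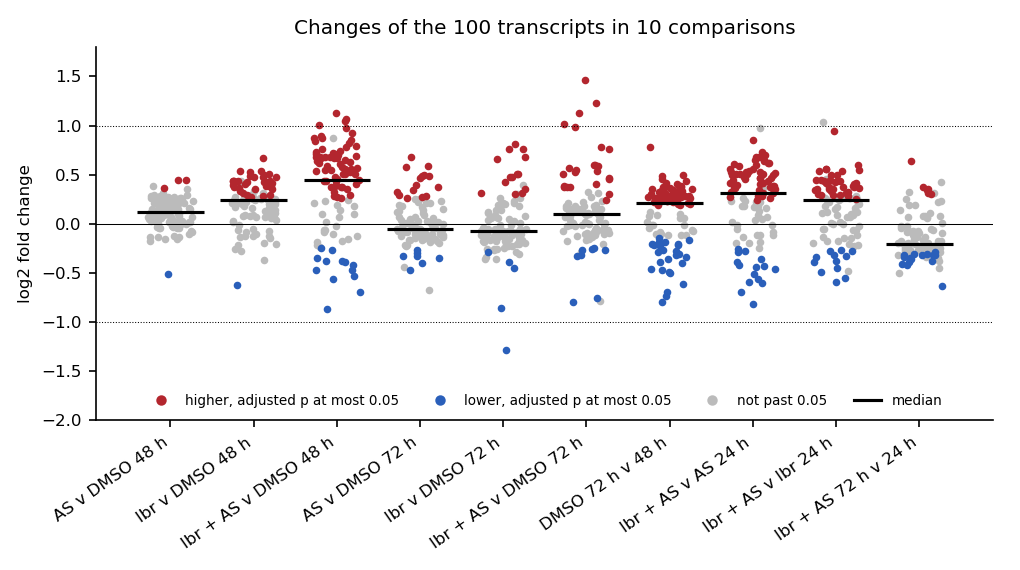
log2 FC of the 100 genes in 10 tested comparisons (points: genes, black bars: median), with genes past an adjusted p of 0.05 in red (higher) or blue (lower); dotted lines mark log2 FC of 1 and -1. The median is highest for Ibr + AS against DMSO at 48 h (0.45) and lies from -0.07 to 0.10 for the treatments against DMSO at 72 h. It is 0.21 for DMSO 72 h against 48 h and -0.20 for Ibr + AS 72 h against 24 h. The highest single point (1.465) belongs to Ibr + AS against DMSO at 72 h.

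The ribosomal protein genes moved together with Ibr + AS at 48 h. RPL8 had 4764, 5000 and 4992 CPM in the DMSO libraries of 48 h and 6223, 7944 and 7285 CPM in those of Ibr + AS. All Ibr + AS libraries were above all DMSO libraries, and the log2 FC was 0.67 (SE 0.10, adjusted p = 5.45e-08). RPS12 had 2288, 2381 and 2469 CPM with DMSO and 2963, 3703 and 3500 CPM with Ibr + AS, again without overlap, and a log2 FC of 0.64 (SE 0.11, adjusted p = 2.71e-06). RPS6, a protein of the small subunit that is phosphorylated after growth signals, had 1415, 1532 and 1511 CPM against 1746, 2115 and 2092 CPM (log2 FC 0.54, SE 0.10, adjusted p = 1.87e-06). RPS18 followed with 0.45 (SE 0.10, adjusted p = 0.000106), and RPL3 rose least, with 0.26 (SE 0.09, adjusted p = 0.0255), and was not called without replicate 2 or 3. Of the 7 ribosomal protein genes with a symbol in the whole table, which add RPL10A and RPS10, 7 were higher with Ibr + AS at 48 h, 3 with Ibr (RPL10A, RPS12, RPS6) and 0 with AS, of which 2 passed an unadjusted p of 0.05. Of all genes tested, 15.4% were higher with Ibr + AS, 5.65% with Ibr and 1.56% with AS.

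At 72 h the ribosomal protein genes no longer separated the groups. RPL8 had 5538, 6454 and 5689 CPM with DMSO and 6162, 5653 and 7121 CPM with Ibr + AS. The groups overlapped, and the log2 FC was 0.14 (SE 0.10, adjusted p = 0.36), though without replicate 2 it was 0.32 (adjusted p = 0.0348). RPS6 had a log2 FC of -0.00 (SE 0.10, adjusted p = 1) and RPS12 one of 0.11 (SE 0.11, adjusted p = 0.569), which became 0.34 without replicate 2 (adjusted p = 0.0199). Without replicate 3 both RPL8 and RPS12 had values below 0 (log2 FC -0.02 and -0.07). None of the 7 passed in any treatment comparison at 72 h by edgeR, where 28.6% (Ibr + AS), 17.6% (Ibr) and 13.2% (AS) of all genes did. At an unadjusted p under 0.05, 0 passed with Ibr + AS, 0 with AS and 1 with Ibr, and by DESeq2 1 of the 5 among the 100 did with Ibr. In DMSO, 7 of 7 were higher at 72 h than at 48 h, with a median log2 FC of 0.26, where 13.9% of all genes were higher. Replicate 2 of DMSO fell in different inferred runs at these times. RPS12 and RPS18 were not called in this comparison with the inferred run as a term or without replicate 3 (adjusted p = 0.05, at the limit, and 0.103), and RPS12 was not called without replicate 2 (log2 FC 0.14, adjusted p = 0.217). The 5 genes among the 100 took 1.25% ± 0.03 of the reads in DMSO 48 h and 1.49% ± 0.11 in DMSO 72 h, beside 1.68% ± 0.17 and 1.501% ± 0.16 with Ibr + AS. The fall of the effect from 48 to 72 h was past the adjusted p for all 5, and for none of them without replicate 2. Among all genes 7.92% had such a fall. At 24 h, 7 of 7 were higher with Ibr + AS than with AS and 4 of 7 than with Ibr. Of all 18670 genes tested, 2323 were higher than with AS and 1870 higher than with Ibr.

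Among other genes of translation, PABPC1 did not pass with Ibr + AS at 48 h and EIF4G2 fell. PABPC1 had 6066, 5877 and 6019 CPM with DMSO and 5856, 5712 and 6056 CPM with Ibr + AS at 48 h, which overlapped (log2 FC 0.10, SE 0.09, adjusted p = 0.512). Its sign depended on the scale, being positive on the TMM scale of the fit and negative in CPM. With Ibr alone it had 6716, 7468 and 6919 CPM and was higher (log2 FC 0.29, SE 0.09, adjusted p = 0.0268), a call lost without replicate 2 or 3. EIF4G2 moved the opposite way from the ribosomal proteins at 48 h. It had 1753, 1681 and 1696 CPM with DMSO and 1305, 1104 and 1216 CPM with Ibr + AS, without overlap (log2 FC -0.37, SE 0.09, adjusted p = 0.00044).

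At 72 h EIF4G2 was higher with each treatment than with DMSO, where it had 1033, 1032 and 1005 CPM. Ibr + AS had 1518, 1558 and 1272 CPM, all above the DMSO libraries (log2 FC 0.54, SE 0.09, adjusted p = 3.71e-07). AS (1584, 1678 and 1675 CPM) and Ibr (1669, 1611 and 1565 CPM) were above all DMSO libraries too, with log2 FC of 0.68 (SE 0.09) and 0.66 (SE 0.10). The DMSO level had dropped from 48 to 72 h (log2 FC -0.74, SE 0.06, adjusted p = 7.66e-28), the largest change among the 12 genes in that comparison. The Ibr + AS effect differed between the times by 0.92 (SE 0.13, adjusted p = 2.25e-08). Of the 7 translation factors with a symbol, 1 was higher (EEF1D) and 1 lower (EIF4G2) with Ibr + AS at 48 h, and 1 was higher (EIF4G2) and 1 lower (EIF3E) at 72 h. These counts are near the background of 30.8% of all genes past the adjusted p at 48 h and 28.6% at 72 h.

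DLA-DRA changed in opposite directions at the later times. At 48 h it had 3124, 3373 and 3151 CPM with DMSO and 3135, 3809 and 3821 CPM with Ibr + AS. These groups overlapped, and the log2 FC of 0.28 (SE 0.11, adjusted p = 0.0354) was not called without replicate 2, without replicate 3 or with all 36 libraries. At 72 h it had 4559, 4738 and 4263 CPM with DMSO and 2088, 2689 and 3001 CPM with Ibr + AS, far apart (log2 FC -0.76, SE 0.11, adjusted p = 2.12e-08). Ibr (2652, 2305 and 3500 CPM) was lower as well (log2 FC -0.86, SE 0.12, adjusted p = 9.86e-08, without the library of 3500 CPM). AS (3701, 3159 and 3452 CPM) differed less (log2 FC -0.40, SE 0.11, adjusted p = 0.00625), and not past the adjusted p without replicate 2. DLA-DRA rose in DMSO from 48 to 72 h (log2 FC 0.49, SE 0.06, adjusted p = 1.89e-14) and fell with Ibr + AS from 24 to 72 h (log2 FC -0.63, SE 0.11, adjusted p = 1.28e-05). The difference between its Ibr + AS effects at 72 h and 48 h was -1.04 (SE 0.15, adjusted p = 3.57e-07). Of the 4 class II genes with a symbol (DLA-DRA, DLA-DMA, DLA-DOA and DLA-DQA1), all 4 were lower with the combination at 72 h and also with Ibr, and 3 were lower with AS, where 14.5, 9.26 and 6.4% of all genes were lower. In DMSO 3 were higher at 72 h than at 48 h, where 13.9% of all genes were higher.

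MYH9 was the only one of the 12 that was a DEG against DMSO. At 72 h it had 1186, 918 and 1143 CPM with DMSO and 2130, 2233 and 1999 CPM with Ibr + AS, a log2 FC of 1.02 (SE 0.09, adjusted p = 3.5e-17). Without replicate 2 the log2 FC was 0.90 (adjusted p = 6.5e-13), which is below the limit for a DEG. Ibr and AS were also higher at 72 h, with log2 FC of 0.76 (SE 0.10) and 0.48 (SE 0.09). At 48 h Ibr + AS had 2073, 2092 and 2070 CPM against 1756, 1342 and 1469 CPM with DMSO, a smaller difference (log2 FC 0.58, SE 0.09, adjusted p = 1.52e-07). The combination differed from each agent alone at 24 h, by 0.44 from Ibr (SE 0.09, adjusted p = 0.000134) and by 0.56 from AS (SE 0.09, adjusted p = 6.43e-07). MYH9 dropped in DMSO from 48 to 72 h (log2 FC -0.49, SE 0.07, adjusted p = 1.89e-12), whereas its change with Ibr + AS from 24 to 72 h, -0.20 (SE 0.09), did not pass (adjusted p = 0.186).

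ATP5F1B, HNRNPK and HNRNPH1 showed small differences. ATP5F1B had 1379, 1544 and 1443 CPM with DMSO and 1207, 1115 and 1114 CPM with Ibr + AS at 48 h, without overlap but not past the adjusted p (log2 FC -0.22, SE 0.09, adjusted p = 0.0581). Without replicate 1 it passed there by edgeR (log2 FC -0.30, adjusted p = 0.00733). Without replicate 2 it passed at 72 h as higher with Ibr + AS (log2 FC 0.30, adjusted p = 0.0345). From 24 h (1095, 972 and 955 CPM) to 72 h (1470, 1280 and 1272 CPM) of Ibr + AS it rose (log2 FC 0.35, SE 0.09, adjusted p = 0.00535), while in DMSO it fell from 48 to 72 h (log2 FC -0.29, SE 0.07, adjusted p = 9.4e-05). HNRNPK was lower with Ibr + AS than with Ibr (log2 FC -0.28, adjusted p = 0.0125) and with AS (log2 FC -0.29, adjusted p = 0.00783) at 24 h, and none of its 6 treatment comparisons with DMSO passed. Without replicate 1 HNRNPK was lower with Ibr + AS at 48 h by edgeR (log2 FC -0.25, adjusted p = 0.0419). HNRNPH1 was higher than DMSO at 72 h with AS, Ibr and Ibr + AS (log2 FC 0.28, 0.31 and 0.25, SE 0.09 to 0.10, adjusted p 0.0219, 0.02 and 0.0261). Each of these calls was lost when 1 replicate or another was left out. Both HNRNPK and HNRNPH1 fell in DMSO from 48 to 72 h (log2 FC -0.27 and -0.19, adjusted p = 0.000403 and 0.0173). HNRNPK was not called there without replicate 3 (adjusted p = 0.0611), nor HNRNPH1 without replicate 1 (0.234) or 3 (0.135).

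**Figure D5:**
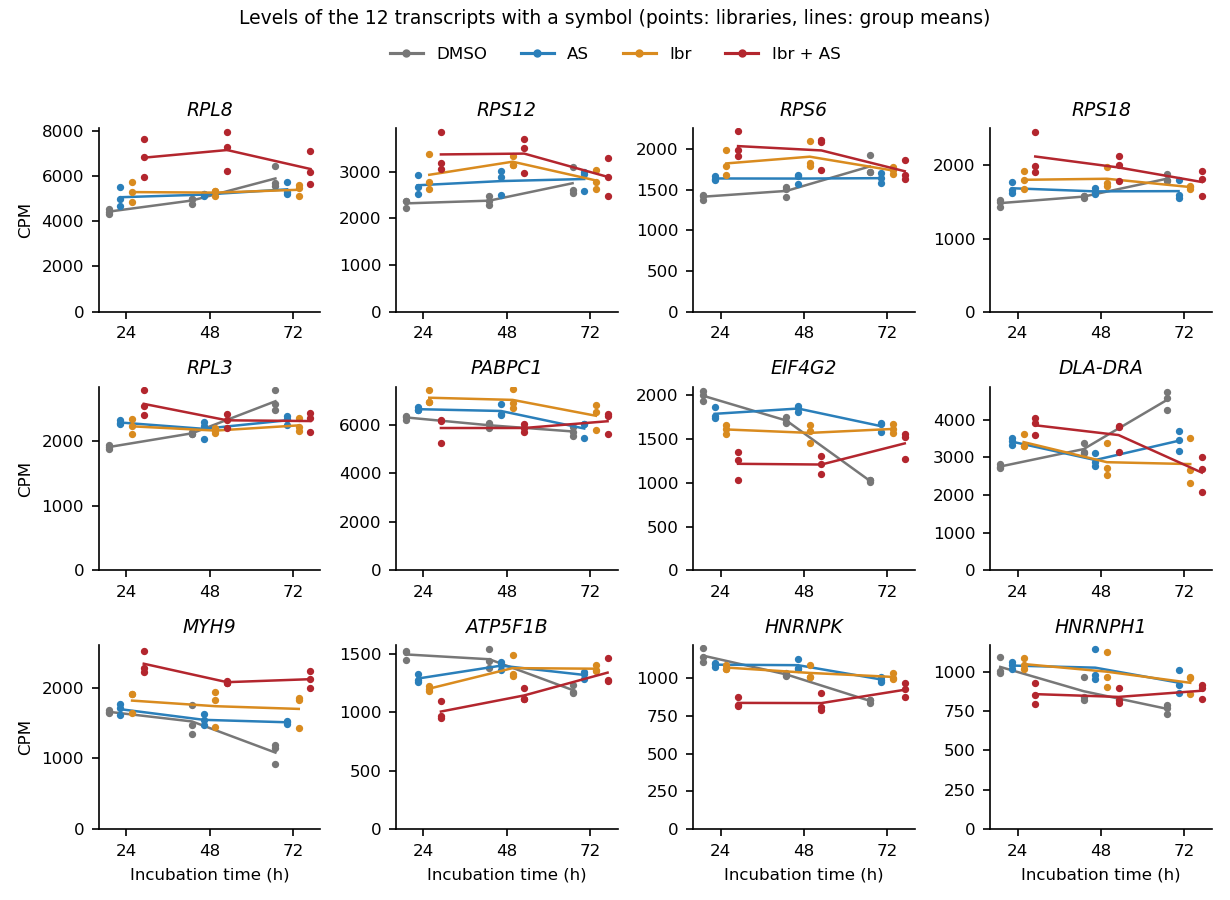
CPM of the 12 genes with a symbol in all 36 libraries (points) with group means joined over incubation time (lines), by treatment; each panel has its own vertical axis from 0. For RPL8, RPS12, RPS6 and RPS18 the Ibr + AS means are highest at 24 and 48 h and the DMSO means rise to 72 h, and for EIF4G2 and MYH9 the DMSO means fall to 72 h.

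Among genes without a symbol, the 2 with the highest and the 2 with the lowest log2 FC past the adjusted p for Ibr + AS at 48 h were followed. ENSCAFG00000041946 (rank 8) had 4807, 5389 and 4412 CPM with DMSO and 7086, 11504 and 11050 CPM with Ibr + AS at 48 h (log2 FC 1.12, SE 0.14, adjusted p = 2.4e-07). At 72 h it had 4016, 3908 and 3812 CPM against 5993, 9078 and 12030 CPM, so that it was a DEG at both times (log2 FC 1.23, SE 0.14, adjusted p = 5.21e-08). Its spread between passages with Ibr + AS was wide, and no library overlapped with DMSO. ENSCAFG00000004980 (rank 31) had 2477, 2492 and 2452 CPM with DMSO and 3992, 5358 and 4844 CPM with Ibr + AS at 48 h (log2 FC 1.06, SE 0.13, adjusted p = 7.77e-09), and at 72 h its log2 FC was 0.60 (SE 0.12, adjusted p = 0.000201).

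ENSCAFG00000013255 (rank 41) fell most at 48 h, from 2052, 1513 and 1743 CPM with DMSO to 1104, 719 and 840 CPM with Ibr + AS (log2 FC -0.87, SE 0.22, adjusted p = 0.00287). At 72 h its groups overlapped (log2 FC -0.07, adjusted p = 0.919). ENSCAFG00000015077 (rank 50) was lower with every treatment at both times. It had 2710, 2646 and 2733 CPM with DMSO at 48 h, against 1909, 1821 and 1847 CPM with AS, 1544, 1936 and 1515 CPM with Ibr and 1629, 1507 and 1451 CPM with Ibr + AS. The log2 FC of these treatments were -0.51, -0.63 and -0.69 (SE 0.10 each, adjusted p = 0.000108, 3.72e-07 and 3.03e-09). In DMSO it was higher at 72 h (3334, 2942 and 3226 CPM) than at 48 h (log2 FC 0.23, SE 0.06, adjusted p = 0.00103). The DMSO 24 h libraries, which chose the genes, had 1709, 1714 and 1745 CPM.

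Some genes without a symbol also lie together in the identifier series. A run of 12 of the 100 had identifiers no more than 10 apart, all within a stretch that holds 32 genes of the table, and the second-longest run had 2. These 12 were singled out after their values were seen, and the table used here gives them no name. They include 5 of the first 10 genes and took 5.88% ± 0.19 of the reads in DMSO 24 h. With Ibr + AS at 48 h they took 7.44% ± 0.66, against 5.44% ± 0.77 with DMSO, and 9 of the 12 were higher and 0 lower past the adjusted p by edgeR, where 15.4% of all genes were higher and 15.3% lower. The other 88 genes took 21.97% ± 1.54 against 17.9% ± 0.20, so both parts of the 100 had the higher share. At 72 h the 12 took 6.44% ± 0.93 with Ibr + AS and 5.93% ± 0.11 with DMSO, and 2 of the 12 were higher, near the 14.1% of all genes. With AS at 72 h 2 of the 12 were lower and 0 higher, where 6.4% of all genes were lower. The 1 DEG with Ibr at 72 h is among the 12 and had a large SE (log2 FC -1.29, SE 0.44, adjusted p = 0.0473 by edgeR). It was also a DEG for the difference of the Ibr + AS effects (-1.65, SE 0.54).

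In the 6 treatment comparisons with DMSO at 48 and 72 h, 91 of the 100 genes passed the adjusted p at least once, where 46.0% of all genes tested did. The other 9 never did, ATP5F1B and HNRNPK among them, though both of these passed in places when 1 replicate was left out. In at least 1 of the 6 comparisons 8 of the 100 were DEGs, where 13.2% of all genes were. All genes tested include genes with as few as 2 reads, so these shares are not those of genes at like levels. At 48 h 78 of the 100 and 70 of the next 100 passed with Ibr + AS, 36 and 33 with Ibr, and 4 and 11 with AS. At 72 h these counts were 32 and 57, 19 and 36, and 22 and 29.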

How the data were processed

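Poly-A RNA of 36 CLBL-1 cultures was sequenced by the authors on a NextSeq500 as single-end reads. According to the methods and processing notes they aligned reads with STAR 2.7.5a to CanFam3.1, and the deposited table holds raw counts per Ensembl gene, not normalized; the strand setting is not given in the sources used here. Depth was 9941919 to 14703839 counts per library. The p-values rest on the spread between libraries of 1 line that remains once group and passage are fitted.

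Levels are CPM over all 30424 genes. The 100 genes, gene lists and tests were chosen with earlier results of these data known. Tests used edgeR 4.0.16 (R 4.3.3), TMM factors (0.907 to 1.05), genes with at least 2 reads over the fitted libraries, and its quasi-likelihood test with group and passage as terms, in 35 libraries or, for DMSO over time, in the 9 DMSO libraries, with Benjamini-Hochberg adjustment over all genes. The fit was tested on simulated counts without passage or time effects and with far fewer changed genes than these data. There all 200 changed genes outside the 100 were called DEGs, as were 5 unchanged genes. Of the 100, 19 of 20 changed genes passed the adjusted p, as did 3 unchanged ones. Passage number pairs libraries by the labels; across groups, libraries of 1 passage deviated together weakly (median r = 0.06 over 11904 genes, as a description). No pair of replicates agreed within sampling noise (chi-square per degree of freedom 1.93 or more). Gene symbols came from the gene lists published with the study, which pair 1068 identifiers; their fold changes and p-values were not used. Named genes are the members with a symbol plus the 2 highest and 2 lowest others past the adjusted p for Ibr + AS at 48 h and changed the same way in every passage. Alternatives were DESeq2 1.42.0, other scaling factors, filters, samples and terms.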

Additional observations from a re-analysis of the deposited data

Results flagged for a closer look

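The effect of Ibr + AS against DMSO differed between 72 h and 48 h, by edgeR's test of the difference itself (72 h minus 48 h, on the log2 scale, adjusted over all genes), for 9 of the 12 genes with a symbol. It was lower at 72 h for DLA-DRA (-1.04), RPS6 (-0.55), RPS12 (-0.53), RPL8 (-0.53), RPS18 (-0.44) and RPL3 (-0.39), and higher for EIF4G2 (0.92), MYH9 (0.44) and ATP5F1B (0.43). Of all genes tested 15.4% passed (7.49% higher and 7.92% lower), as did 55 of the 100 and 54 of the next 100. Without replicate 2 the difference passed for DLA-DRA (-0.99), EIF4G2 (0.85) and ATP5F1B (0.46) but not for the 5 ribosomal protein genes or MYH9, and without replicate 3 ATP5F1B did not pass either (0.42, adjusted p = 0.0858 by edgeR). Groups of 3 libraries were too small to look for outlying libraries.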

How the results depend on the processing

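Among the genes with a symbol and those followed by identifier, no called value changed its sign. The others of the 100 were compared by counts only. Values that were not called did in places, for example with Ibr + AS at 72 h, where RPL8 and RPS12 turned negative without replicate 3 (-0.02 and -0.07) and RPL3 turned positive without replicate 2 (0.0017). Counts of genes among the 100 that moved by over 1.5 times are given here; the causes were not tested. With only the groups compared in the fit, genes past the adjusted p numbered 21 (AS) and 68 (Ibr) at 48 h, 37 (Ibr) and 21 (Ibr + AS) at 72 h, 31 for Ibr + AS against Ibr at 24 h and 2 for Ibr + AS over time. DESeq2 gave 7 for AS at 48 h and 34 for Ibr + AS over time, and 1 DEG for Ibr + AS against either agent at 24 h, where filtering by filterByExpr gave 1 against Ibr. The inferred sequencing run as a term left 2 DEGs for Ibr + AS at 48 h and 0 for Ibr at 72 h, as did no filter for the latter (0). The fit of 35 libraries gave 48 for DMSO over time.

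Leaving out 1 passage in turn gave 4 to 15 genes past the adjusted p for AS at 48 h, 24 to 45 for Ibr at 48 h, 73 to 78 for Ibr + AS at 48 h, 17 to 29 for AS at 72 h (13 higher and 16 lower without replicate 1), 10 to 26 for Ibr at 72 h, 30 to 43 for Ibr + AS at 72 h, 56 to 73 for DMSO over time, 7 to 60 for Ibr + AS over time and 23 to 66 for the difference of the Ibr + AS effects. DEGs ranged from 1 to 6 (Ibr + AS at 48 h), 0 to 1 (Ibr at 72 h, DMSO over time, and Ibr + AS against Ibr and against AS at 24 h) and 1 to 6 (difference of effects). Without replicate 1 or 2 the tests of Ibr at 72 h rest on 1 library of that group, assumed to vary like the others.

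With 50 genes in place of 100 the share in DMSO 24 h was 16.9% and the difference between Ibr + AS and DMSO at 48 h 4.43 points, with 200 genes the share was 31.6%, and with the genes chosen over all 36 libraries these were 23.3% and 6.49 points. Without passage as a replicate block, 79 genes passed for Ibr + AS at 48 h, 33 at 72 h and 72 for DMSO over time, and no count moved by over 1.5 times. RLE factors and TMM factors set without the 100 genes moved the median log2 FC of the 100 genes by at most 0.02.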
